A study of Mus musculus with 3 samples.

Results

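Small leucine-rich proteoglycans are secreted matrix proteins built from leucine-rich repeats, and 9 of the 27998 genes in the deposited tables were taken here by name. They were Dcn (decorin), Bgn (biglycan), Aspn (asporin), Lum (lumican), Fmod (fibromodulin), Omd (osteomodulin), Prelp (the proline and arginine-rich end leucine-rich repeat protein), Ogn (osteoglycin) and Podn (podocan). The genes were picked by name and not by a cut on measured values, but with earlier results of these data known.

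These proteins coat collagen fibrils, hold the distance between neighbouring fibrils and limit how thick a fibril grows, and many of them carry chondroitin, dermatan or keratan sulfate chains. Several also bind growth factors such as TGF-beta or signal through cell surface receptors. In skin, decorin and lumican are classic products of dermal fibroblasts, and mice without either gene have fragile skin with irregular collagen fibrils.

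The RNA of single cells was read from back skin of C57BL/6 males, 7 to 9 weeks old, with no engineered allele named in the labels. Wounds through the whole skin, 1.0 cm long and 0.5 cm wide, were cut on both sides of the back in telogen, the resting phase of the hair cycle. The 3 groups were non-lesional skin, the wound at day 2 and the wound at day 7. Each group was 1 library of cells freed with collagenase D and DNase1, and the labels do not say how many animals a library pools. Since each group is 1 library, no difference between groups could be tested and each one describes these libraries. All intervals are exact 95% intervals that cover counting error only.

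Values are counts of UMIs, unique molecular identifiers, each marking 1 captured RNA molecule at its 3′ end, so levels are not divided by gene length. The libraries held 102345327 to 138046172 UMIs, and 9390, 7362 and 4773 cells were kept from non-lesional skin, day 2 and day 7. Cells were clustered without the 9 genes and named from other markers, with "-like" marking a name that rests on markers. Fibroblast-like cells numbered 5846, 4087 and 2221, and their clusters of at least 50 cells had 11 or 12 of the 12 fibroblast markers detected. Their median depth was 9670 UMIs in non-lesional skin, 26130 at day 2 and 27426 at day 7. Naming needed a mean relative marker level of at least 0.25. The cluster led by Smpd3 and Efhd1, with 1656 non-lesional cells, reached only 0.252, and the other clusters named fibroblast 0.317 to 0.598. In non-lesional skin 3937 cells were fibroblast-like with at most 5% mitochondrial UMIs, and 4563 with doublets kept. Cells without a name rose under these settings, to 2366 and 2408, from 697 in the main one. The lower numbers are thus not only cells removed by a filter. Day 2 held 2041 neutrophil-like and 0 keratinocyte-like cells. Cell barcodes shared between 2 libraries numbered 14 to 24.

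Several of the genes lie side by side, in positions given on GRCm38. Aspn (chr13:49544443-49567565), Omd (chr13:49582462-49592822) and Ogn (chr13:49608046-49624501) follow each other on the plus strand of chromosome 13, with Ecm2, another leucine-rich repeat matrix gene, just before them. All 3 lie inside Cenpp, a centromere protein gene on the opposite strand, which stood at 0.508 CPM in fibroblast-like cells of non-lesional skin, 12.3 CPM at day 2 and 8.91 CPM at day 7. Dcn (chr10:97479609-97518143) and Lum (chr10:97565128-97572703) are neighbours on chromosome 10, as are Prelp (chr1:133910304-133921414) and Fmod (chr1:134037254-134048277) on chromosome 1. Bgn lies at chrX:73483602-73495933, and Podn at chr4:108014791-108096445, where it overlaps Scp2 on the same strand.

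The 250 bases before the start of the chromosome 13 genes are shown because these neighbours fell together at day 2, beside those of Bgn, which did not fall. The sequences are RefSeq's on GRCm38.p6, at chr13:49544193-49544442, chr13:49582212-49582461, chr13:49607765-49608014 and chrX:73483351-73483600, all on the plus strand, and capitals mark matches to the motifs named after them.
Aspn: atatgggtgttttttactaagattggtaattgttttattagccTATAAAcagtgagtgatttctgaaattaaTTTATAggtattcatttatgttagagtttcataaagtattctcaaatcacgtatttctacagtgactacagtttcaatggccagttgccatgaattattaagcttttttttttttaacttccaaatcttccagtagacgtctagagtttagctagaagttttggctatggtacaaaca
Omd: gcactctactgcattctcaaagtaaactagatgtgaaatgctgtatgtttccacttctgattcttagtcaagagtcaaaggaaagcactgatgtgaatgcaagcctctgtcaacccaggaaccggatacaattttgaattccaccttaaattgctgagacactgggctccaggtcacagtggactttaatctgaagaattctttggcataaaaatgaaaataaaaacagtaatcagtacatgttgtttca
Ogn: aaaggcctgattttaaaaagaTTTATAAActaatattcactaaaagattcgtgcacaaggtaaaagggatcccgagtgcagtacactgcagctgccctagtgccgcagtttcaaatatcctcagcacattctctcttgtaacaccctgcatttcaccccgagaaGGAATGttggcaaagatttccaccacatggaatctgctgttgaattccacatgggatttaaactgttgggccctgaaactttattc
Bgn: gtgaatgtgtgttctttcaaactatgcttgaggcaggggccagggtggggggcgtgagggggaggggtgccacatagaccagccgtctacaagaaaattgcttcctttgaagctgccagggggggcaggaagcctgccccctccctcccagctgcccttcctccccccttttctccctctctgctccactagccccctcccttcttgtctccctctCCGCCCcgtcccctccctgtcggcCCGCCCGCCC
The motifs, searched on both strands, were the TATA box (TATAAA), the GC box (GGGCGG), the AP-1 motif (TGANTCA), the SMAD motif (CAGACA), the TEAD motif (GGAATG), the C/EBP motif (TTGCNNNAA) and the CArG box. TATAAA was in the Aspn window 207 and 178 bases before the start and in the Ogn window as an overlapping pair, 229 and 227 bases before the start, against 12.4% of 32851 promoter windows. GGAATG was 86 bases before the start of Ogn, against 12.6% of windows, and the Omd window held none of the motifs. Bgn held 3 GC boxes 34, 10 and 6 bases before its start, the last 2 overlapping, against 32.7% of windows with at least 1. GC content was 30% for Aspn, 38.4% for Omd, 42% for Ogn and 64.4% for Bgn, beside a median of 52.4%. The AP-1, SMAD, C/EBP and CArG motifs were in none of these 4 windows, against 6.75%, 17.1%, 8.29% and 1.47% of the 32851 windows. Those windows left out a chromosome that holds none of the genes studied here. Of the windows not shown, those of Podn, which also fell at day 2, had 78% and 64% GC. The first held GC boxes 202 and 70 bases before the start. Fmod, also lower at day 2, had 51.2% GC and a C/EBP match 125 bases before the start. Prelp, not called at day 2, had 55.6% GC. Dcn and Lum, both called lower at day 2, had no entry among the promoters and so no window. No link between these windows and the levels was tested.

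In fibroblast-like cells most of these genes were lower at day 2 than in non-lesional skin, and most were higher at day 7 than at day 2. Bgn was highest at day 7 and Prelp lowest at day 7. Levels are given as CPM, the usual depth-scaled count, here the gene's UMIs over all UMIs of the class. A gene was called higher or lower where it differed at least 2-fold, its whole interval lay on one side of 1 and the pair held at least 10 UMIs. Words such as fell and rose compare sums over the class. Its clusters were mostly of 1 library. In the cluster led by Smpd3 1656 of 1662 cells were non-lesional. In those led by Cxcl14 and Csf3, 2390 of 2413 and 1671 of 1674 were from day 2. In the one led by Prss35 1515 of 1520 were from day 7. What separates the libraries and what separates these clusters thus cannot be told apart.

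Decorin, biglycan and asporin form the class closest in sequence to decorin. Dcn, whose protein binds collagen fibrils and TGF-beta, stood at 11258 CPM in non-lesional skin, 3552 CPM at day 2 and 3961 CPM at day 7. It was the most abundant of the 9 transcripts in every library, and both wound levels lay far under the non-lesional one. It was 3.17-fold lower at day 2 (95% interval 3.16 to 3.18) and 2.84-fold lower at day 7 (2.83 to 2.86) than in non-lesional skin. Day 7 over day 2 was 1.12, which was not called.

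Bgn, whose protein resembles decorin and in soluble form is a ligand of toll-like receptors, stood at 1131 CPM in non-lesional skin, 1270 CPM at day 2 and 3143 CPM at day 7. The first 2 levels were close and the day 7 level stood apart. Bgn at day 2 was 1.12 times the non-lesional level (1.11 to 1.13) and was not called. Over the alternative settings this ratio went from 0.849 to 3.04. It rose at day 7, to 2.78 times the non-lesional level (2.76 to 2.80) and 2.47 times the day 2 level (2.46 to 2.49). In fibroblast-like cells there were 79.4 Bgn UMIs per 100 Dcn UMIs at day 7 and 35.8 at day 2, against 10.04 in non-lesional skin.

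Aspn, whose protein binds collagen and can restrain TGF-beta, stood at 682 CPM in non-lesional skin, 45.4 CPM at day 2 and 636 CPM at day 7. Only the day 2 level stood apart. Aspn fell 15.0-fold at day 2 (14.6 to 15.5) and was 14.0 times higher at day 7 than at day 2 (13.6 to 14.4). Day 7 was 0.932 times the non-lesional level (0.920 to 0.945), which was not called.

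Lumican, fibromodulin, osteomodulin and Prelp form another class by sequence, some members of which carry keratan sulfate. Lum, whose protein spaces collagen fibrils in cornea and skin, stood at 1753 CPM in non-lesional skin, 86.3 CPM at day 2 and 867 CPM at day 7. The day 2 level was the lowest by far and the day 7 level lay between. Lum fell 20.3-fold at day 2 (19.9 to 20.7) and was 10.05 times higher at day 7 than at day 2 (9.83 to 10.3). Day 7 was 2.02-fold lower than non-lesional skin (2.00 to 2.04), a call at the threshold that 7 of 16 alternative settings ended.

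Omd, first known from bone, stood at 38.1 CPM in non-lesional skin, 0.645 CPM at day 2 and 10.03 CPM at day 7. At day 2 it rested on 72 UMIs over all fibroblast-like cells, so it was nearly undetected. Omd fell 59.1-fold at day 2 (46.7 to 75.8) and 3.80-fold at day 7 (3.48 to 4.15) relative to non-lesional skin. Day 7 over day 2 was 15.6 (12.2 to 20.1).

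Prelp, whose protein links collagen to heparan sulfate of basement membranes, stood at 201 CPM in non-lesional skin, 122 CPM at day 2 and 40.3 CPM at day 7. It was the only one of the 9 genes whose level was lower at day 7 than at day 2. Prelp at day 2 was 0.606 times the non-lesional level (0.591 to 0.621) and was not called. It was called lower under median-of-ratios scaling (0.496) and with free RNA subtracted (0.489), and per cell it lay above non-lesional skin, at 3.32 UMIs against 2.03, a ratio of 1.64 that was not called. It fell 4.98-fold at day 7 relative to non-lesional skin (4.77 to 5.19) and 3.02-fold relative to day 2 (2.89 to 3.14).

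Fmod, whose protein binds collagen and is abundant in tendon, was scarce in this class, with 7.33 CPM in non-lesional skin, 2.27 CPM at day 2 and 17.2 CPM at day 7. Behind these values were 433, 254 and 1146 UMIs, the first 2 from only 103 and 102 cells. Among non-lesional clusters named fibroblast, Fmod was highest in the one led by Myoc and Hmcn2. That cluster held 1132 cells of non-lesional skin, 8 of day 2 and 38 of day 7. Fmod was 3.22-fold lower at day 2 (2.75 to 3.78) and 2.34 times higher at day 7 (2.10 to 2.62) than in non-lesional skin. Without dividing cells the day 2 ratio was 0.695, and per cell it was 0.839, and neither was called. The day 7 call was ended by 7 of 16 alternatives. In the non-lesional library 59.8% of Fmod UMIs were in clusters with no name and 33.0% in fibroblast-like cells. With the cluster led by Coch, described below, counted as fibroblast-like, day 7 over non-lesional skin was 0.879.

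Ogn, also called mimecan, belongs to a class with fewer repeats, and Podn to a more distant class found in kidney and vessel wall. Ogn stood at 583 CPM in non-lesional skin, 100.1 CPM at day 2 and 253 CPM at day 7. Ogn fell 5.82-fold at day 2 (5.70 to 5.95), and at day 7 it was 2.30-fold lower than non-lesional skin (2.26 to 2.34), a call that 5 of 16 alternatives ended. Podn stood at 206 CPM in non-lesional skin, 9.87 CPM at day 2 and 24.1 CPM at day 7. It was low in both wound libraries, 20.8-fold lower at day 2 (19.6 to 22.2) and 8.53-fold lower at day 7 (8.10 to 8.99). From day 2 to day 7 Ogn was 2.53 times higher (2.47 to 2.59) and Podn 2.44 times higher (2.26 to 2.64), and without dividing cells the Podn ratio was 1.76 and was not called.

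At day 2 against non-lesional skin 7 of the 9 genes were called lower and 0 higher, beside 17.3% lower and 28.5% higher of 16029 measured genes. At day 7 against non-lesional skin 6 were called lower and 2 higher, beside 11.8% and 28.9% of 15883 genes. At day 7 against day 2, 1 was called lower and 7 higher, beside 6.91% and 14.8% of 16202 genes. The median log2 fold of the members, with 5 CPM added to each level, was -2.48, -1.19 and 1.30 in these comparisons, beside 0.06, 0.14 and 0.02 over all measured genes. The comparisons share libraries, so they are not independent of each other. Of all genes called at day 7 against non-lesional skin 70.9% were higher, and 51.3% under median-of-ratios and 54.5% under TMM scaling, which moved the median of all genes by -0.13 and -0.11. At day 2 against non-lesional skin 62.2% of called genes were higher, and 50.3% under median-of-ratios scaling.

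**Figure D1:**
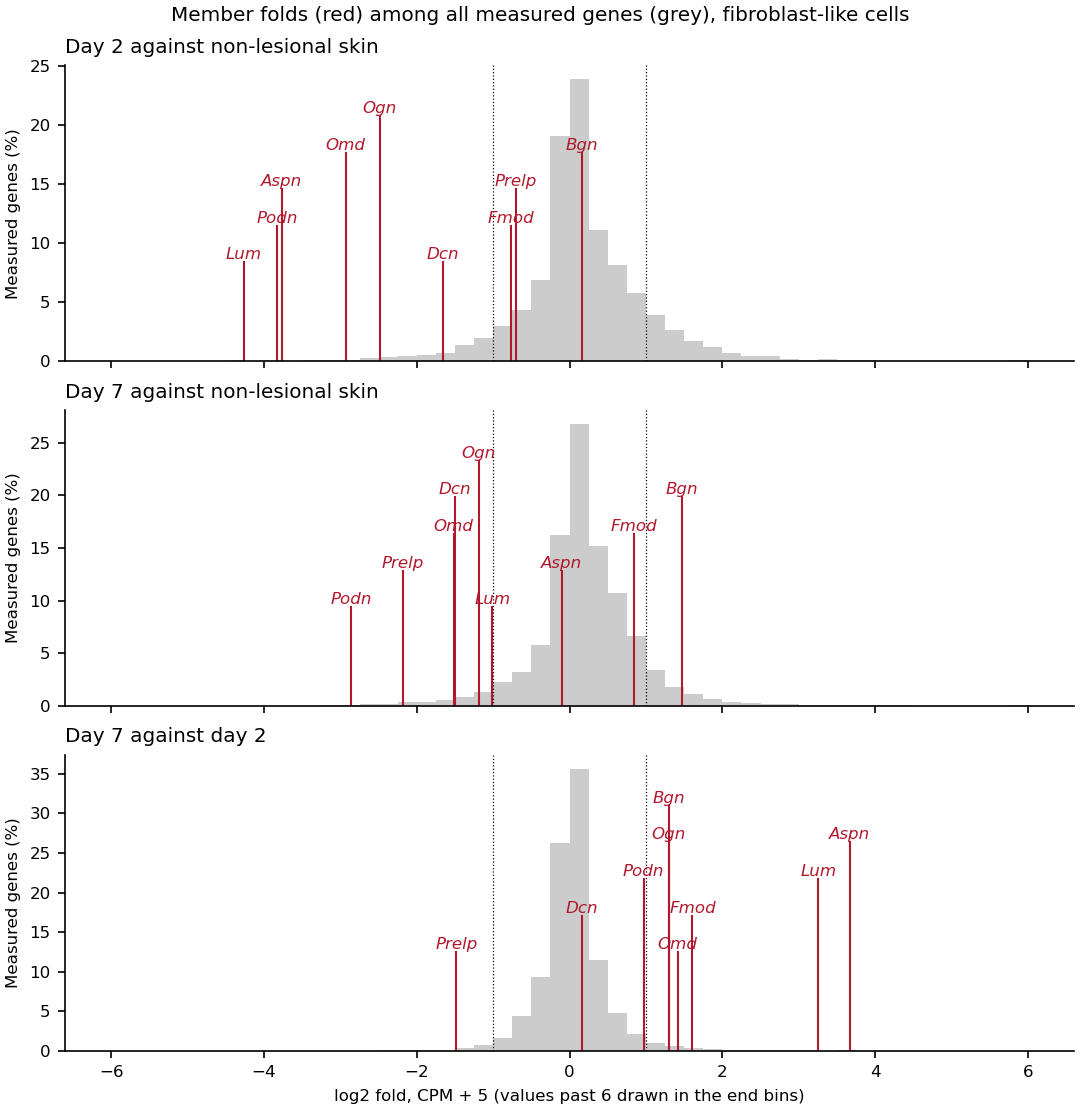
Red lines mark the log2 fold of each of the 9 genes (x axis, 5 CPM added to each level) over grey bars for the percent of all measured genes in each bin of 0.25 (y axis), in fibroblast-like cells of each pair of libraries; dotted lines mark 2-fold. The genes lie mostly left of the bulk in the first panel, with Lum at -4.27, and mostly right of it in the last, with Aspn at 3.67.

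Fibroblast-like cells of the wound libraries held more UMIs in all, 27334 per cell at day 2 and 30031 at day 7, against 10105 in non-lesional skin. Other classes differed in direction. Median depth was lower at day 2 in the class of T, NK or innate lymphoid cells, 1165.5 UMIs against 3415.5 in non-lesional skin, and in dendritic-like cells, 3987.5 against 5814. It was higher at day 2 in mast cell or basophil-like cells, 2112 UMIs (33 cells) against 1198 (39 cells), and in pericyte or smooth muscle-like cells, 18191 UMIs (13 cells) against 5302.5. Endothelial-like cells had 9774 UMIs (10 cells) at day 2 against 6269, and lymphatic endothelial-like cells 8315.5 (10 cells) against 5867. Counted per cell and not as CPM, Dcn was 97.1 UMIs at day 2 and 119 at day 7, against 114 in non-lesional skin, and neither pair was called. Bgn was 34.7 UMIs per cell at day 2 and 94.4 at day 7, against 11.4, called higher in both, and Aspn was 19.1 at day 7 against 6.89, also called higher. Fmod was 0.516 at day 7 against 0.0741 and was called higher as well. Lum, Aspn, Omd, Ogn and Podn were called lower at day 2 on this scale too, with Lum at 2.36 UMIs per cell against 17.7 in non-lesional skin. At day 7 only Podn was called lower per cell, at 0.724 UMIs against 2.08. Lum was 26.0 UMIs per cell against 17.7, and Ogn 7.61 against 5.89, so both lay above non-lesional skin where their CPM lay below it. The members together made up 0.519% of fibroblast-like UMIs at day 2 and 0.895% at day 7, against 1.59% in non-lesional skin. Whether cell size, RNA content or capture differed was not tested.

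**Figure D2:**
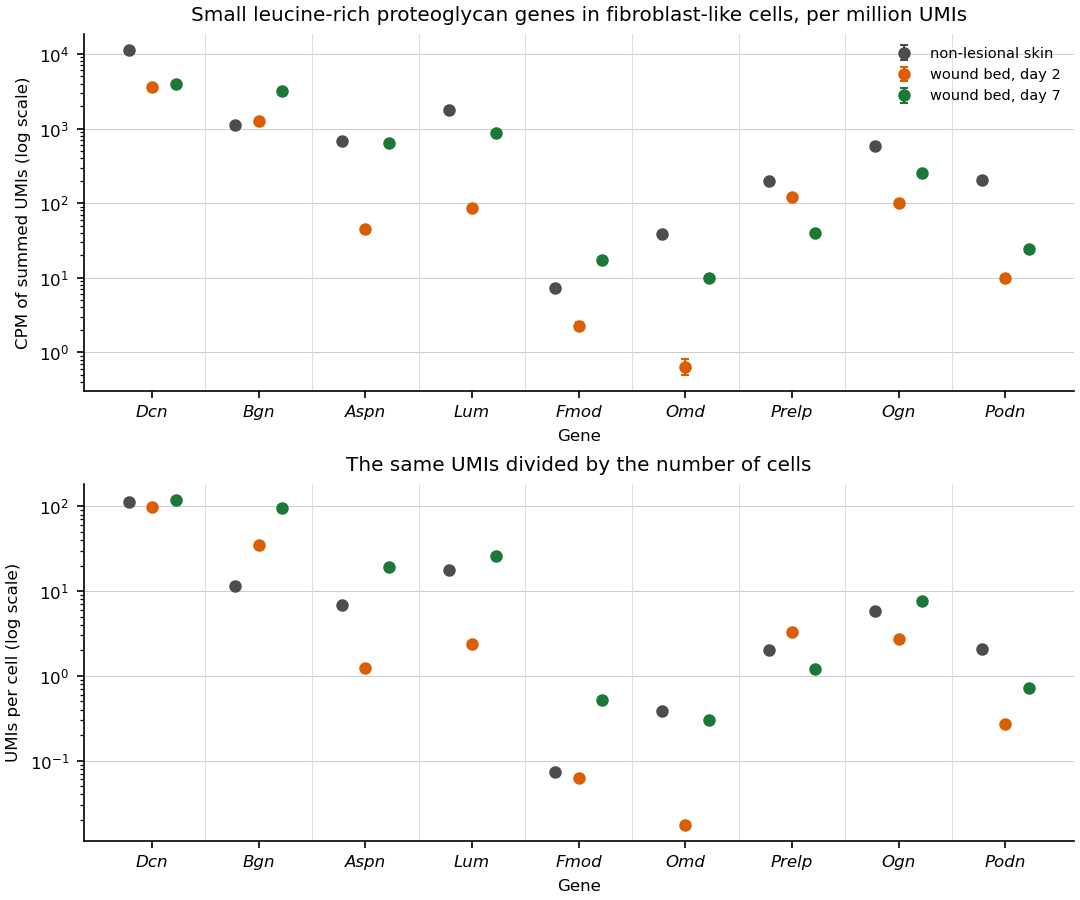
The upper panel plots the CPM of each gene in fibroblast-like cells and the lower panel the same UMIs divided by the number of cells, on log axes, with 1 point per library and bars for the 95% counting interval in the upper panel. Dcn stands at 11258, 3552 and 3961 CPM but at 114, 97.1 and 119 UMIs per cell, while Lum and Podn have their lowest point at day 2 in both panels.

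To compare cells at equal depth, each cell was thinned to 1000 UMIs, leaving out 119, 54 and 32 shallower fibroblast-like cells of non-lesional skin, day 2 and day 7. A Lum UMI was then seen in 61.7%, 9.40% and 52.1% of cells in that order, and unthinned in 90.4%, 59.8% and 95.9%. For Aspn the thinned shares were 40.2%, 4.12% and 40.5%, and the unthinned ones 84.1%, 35.1% and 89.8%. For Bgn they were 47.9%, 66.4% and 91.9%, against 71.2%, 97.7% and 99.6% unthinned. Thinned Dcn shares were 99.6%, 91.4% and 92.5%, so nearly every fibroblast-like cell carried this transcript in all libraries. Omd was seen in 3.61% of thinned cells of non-lesional skin, 0 of 4033 at day 2 and 1.10% at day 7, and unthinned in 25.7%, 1.74% and 17.7%. In keratinocyte-like cells of non-lesional skin, which should lack the family, thinned shares were 6.48% for Dcn and 1.80% for Lum at a median of 16825 UMIs, and in neutrophil-like cells of day 2 they were 17.4% and 0.617% at a median of 887 UMIs, with 1231 shallower cells left out.

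Over all kept cells of a library, where the mix of cell types also counts, 6 genes were called lower and 0 higher at day 2 against non-lesional skin, beside 25.1% and 19.4% of measured genes. Of all cells, fibroblast-like ones were 62.3% in non-lesional skin, 55.5% at day 2 and 46.5% at day 7. Dcn over all cells was 3376 CPM at day 2 and 3137 CPM at day 7, against 6478 CPM in non-lesional skin, called lower only at day 7. At day 7 against non-lesional skin 4 genes were called lower and 1, Bgn, higher, beside 13.9% and 21.7%. At day 7 against day 2 they were 1 lower, Prelp, and 7 higher, beside 5.24% and 22.4%. Of all UMIs, fibroblast-like cells held 59072287 of 107561355 in non-lesional skin, 111713457 of 119181821 at day 2 and 66699784 of 87362068 at day 7. Their share of UMIs was thus higher in both wound libraries, while their share of cells was lower. What part the cell mix has in these sums was not tested. At day 7 against non-lesional skin 61.0% of all called genes were higher, and 47.9% and 48.7% under median-of-ratios and TMM scaling. At day 7 against day 2 81.0% were higher, and 67.7% and 67.6% under these scalings.

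Fibroblast-like cells of non-lesional skin fell into 5 clusters of at least 50 cells, named here by their leading genes, and the members divided them in opposite ways. In the Smpd3 and Efhd1 cluster (1656 cells) Bgn was 41.2 CPM, Lum 257 CPM and Podn 41.2 CPM, while Ogn was 1245 CPM and Omd 64.1 CPM. In the Igfbp2 and Stc1 cluster (530 cells) the pattern was turned round, with Bgn at 1680 CPM, Lum at 2891 CPM and Podn at 323 CPM, while Ogn was 18.8 CPM and Omd was 30 UMIs in all. The Wfdc12 and Gal cluster (1792 cells) resembled the second, with Bgn at 1813 CPM, Lum at 2615 CPM and Ogn at 104 CPM.

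The Myoc and Hmcn2 cluster (1132 cells) had Ogn at 1246 CPM together with Bgn at 1282 CPM, and it held the highest Dcn of the subsets, 13157 CPM. The C6 and Tnmd cluster (730 cells) had the highest Aspn of the non-lesional subsets, 1027 CPM, and the highest Prelp, 314 CPM. Dcn varied least, between 9389 and 13157 CPM over the 5 clusters, while Ogn ran from 18.8 to 1246 CPM and Bgn from 41.2 to 1813 CPM. A cluster led by Coch and Lepr (629 non-lesional and 149 day 7 cells) had fibroblast as its best list with 12 markers detected, but was left without a name because Wif1, on the dermal papilla list, was among its leading genes. It had the most Fmod, 185 CPM, beside 52.8 CPM in the Myoc cluster and 0 to 4.38 CPM in the others, and the least Dcn of non-lesional skin, 6163 CPM.

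Across the 6 non-lesional subsets, that cluster included, log2 levels of Ogn and Omd had a Pearson correlation of 0.99 and those of Lum and Podn of 0.96, while Lum and Ogn had -0.65. The 6 points share a library, and with the day 2 and day 7 subsets added (12 points) the values were 0.79, 0.79 and 0.04. The neighbours Dcn and Lum had 0.51 over the 6 subsets, and Aspn and Ogn 0.23.

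At day 2 the fibroblast-like cells were almost all in 2 clusters. In the one led by Cxcl14 and Saa3 (2390 cells) every member was higher than in the one led by Csf3 and Ereg (1671 cells). Lum was 121 CPM in the first and 41.4 CPM in the second, Aspn 67.1 and 19.2 CPM, Podn 14.8 and 3.64 CPM, and Dcn 3834 and 3206 CPM. The lowest Lum of any non-lesional subset, 257 CPM, lay above both. The dividing share was 58.1% in the first and 61.3% in the second.

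At day 7 the largest cluster, led by Prss35 and Tnn (1515 cells), had Bgn at 3319 CPM, above its Dcn at 3231 CPM, and the lowest Prelp of the subsets, 10.9 CPM. The cluster led by Dlk1 and Mgp (523 cells) had Dcn at 6045 CPM, Prelp at 135 CPM and Ogn at 532 CPM, against 179 CPM for Ogn in the Prss35 cluster. The 57 day 7 cells of the C6 and Tnmd cluster had Dcn at 9261 CPM, Lum at 3090 CPM and Prelp at 213 CPM, and the 730 non-lesional cells of that cluster had 10860, 1670 and 314 CPM. Lum was thus higher at day 7 in this cluster, though lower over the class, while Dcn and Prelp were lower in both. Bgn there was 2846 CPM at day 7 against 692 CPM in non-lesional skin, and in the Coch cluster 2315 CPM against 1700 CPM. Prelp in the other 3 day 7 subsets lay between 135 and 213 CPM.

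**Figure D3:**
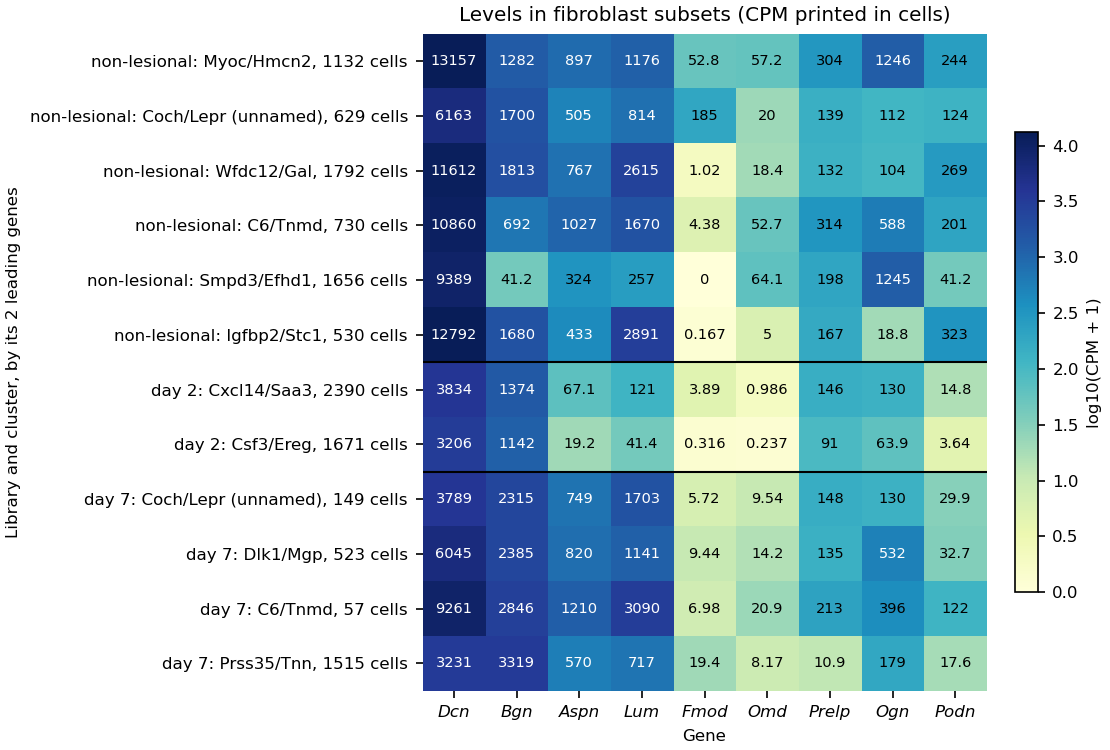
Each row is a cluster with at least 50 cells of a library, named by its 2 leading genes, each column is a gene, and the printed value is CPM with colour for log10(CPM + 1). Among the non-lesional rows Ogn runs from 18.8 to 1246 CPM against Lum from 257 to 2891 CPM, and in the last row Prelp is 10.9 CPM.

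Dividing cells, those with at least 3 of 10 cell cycle genes detected, were 2418 of 4087 fibroblast-like cells at day 2 and 669 of 2221 at day 7, and 2 in non-lesional skin. Their depth was higher than that of the other cells, with medians of 32485.5 and 17436 UMIs in dividing and other cells at day 2, and 39932 and 23721.5 at day 7. The cell cycle genes were counted in unthinned cells, so deeper cells reach 3 of 10 more readily, and non-lesional cells were shallower. At day 7 Ogn was 95.3 CPM in dividing cells against 382 CPM in the others, Prelp 13.2 against 62.4 CPM, and Aspn 373 against 851 CPM. Dcn was 3245 against 4544 CPM. Bgn was 3104 CPM in dividing cells and 3176 CPM in the others, and at day 2 it was 1284 and 1233 CPM. At day 2 Lum was 66.9 CPM in dividing cells against 137 CPM in the others, and Ogn 79.4 against 154 CPM. Most dividing cells of day 7 were in the Prss35 cluster, where 40.9% divided, against 8.22% in the Dlk1 cluster.

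**Figure D4:**
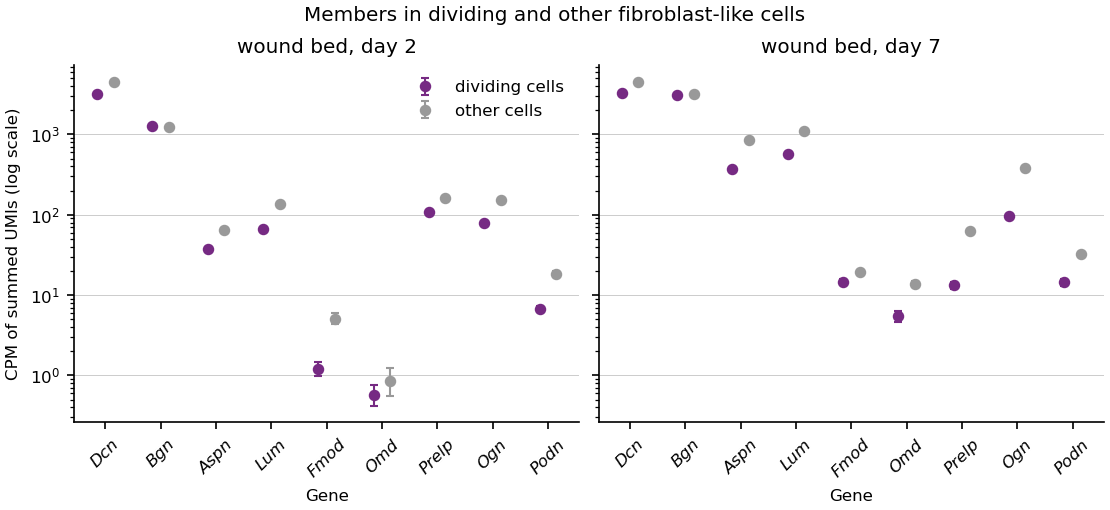
Points give the CPM of each gene (log axis) in dividing and other fibroblast-like cells of the wound libraries, with bars for the 95% counting interval. Bgn points nearly coincide, at 3104 and 3176 CPM at day 7, while Ogn is 95.3 CPM in dividing cells and 382 CPM in the others.

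Outside fibroblast-like cells Bgn and Aspn were also found in mural cells of vessels. Pericyte or smooth muscle-like cells of non-lesional skin (236 cells) had Aspn at 562 CPM, Bgn at 533 CPM, Prelp at 137 CPM and Fmod at 41.1 CPM beside Dcn at only 68.8 CPM. Relative to Dcn these were 135, 77.0, 112 and 918 times the ratios in fibroblast-like cells of that library, while Lum was 1.19 times. Keratinocyte-like cells of non-lesional skin had Dcn at 120 CPM, with Aspn, Bgn, Lum, Ogn, Omd, Podn and Prelp at 0.740 to 1.58 times the fibroblast ratios and Fmod, on 38 UMIs, at 14.6 times. At day 7 pericyte or smooth muscle-like cells (186 cells) had Bgn at 2615 CPM, 4.91 times the non-lesional 533 CPM (4.55 to 5.31), and Prelp at 19.6 CPM against 137 CPM, 7.00-fold lower. Their Aspn was 388 CPM, which was not called.

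Dermal papilla-like cells were in separate clusters, the one led by Slc26a7 and Pappa2 in non-lesional skin (110 cells of the class) and the one led by Wif1 and Corin at day 7 (259 cells). Aspn was 23.0 CPM at day 7 against 384 CPM in non-lesional skin, 16.7-fold lower, and Podn 4.31 against 38.1 CPM, 8.85-fold lower. Bgn was 441 against 425 CPM and was not called. Median depth was 5536 UMIs at day 7 against 39049.5, and since the clusters differ, what separates the libraries and what separates the clusters cannot be told apart.

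Schwann-like cells of non-lesional skin (151 cells) had Ogn at 271 CPM beside Dcn at 137 CPM, 38.3 times the fibroblast ratio to Dcn, and an Ogn UMI in 33.8% of cells at a median depth of 2651 UMIs, against 3.72% of keratinocyte-like cells at 16825 UMIs. Melanocyte-like cells (111 cells) had Bgn at 242 CPM, 5.76 times that ratio, and Prelp at 59.4 CPM. Endothelial-like cells at day 7 (140 cells) had Bgn at 757 CPM and Dcn at 315 CPM. Neutrophil-like cells of day 2 had Dcn at 253 CPM and Bgn at 219 CPM, with Bgn at 2.42 times the fibroblast ratio to Dcn. A cluster with all 7 erythroid markers detected (81 cells at day 2 and 86 at day 7) carried Dcn at 3197 and 1372 CPM on these days, against 3552 and 3961 CPM in fibroblast-like cells. Fibroblast was the second-best list of that cluster, at 0.221, and its median depth at day 2 was 11837 UMIs. In the dendritic-like and neutrophil-like cells of day 2 Dcn was 76.0 and 253 CPM. What share of the UMIs in these classes is free RNA was not tested. Whether barcodes of the erythroid cluster also held fibroblasts was not tested either.

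**Figure D5:**
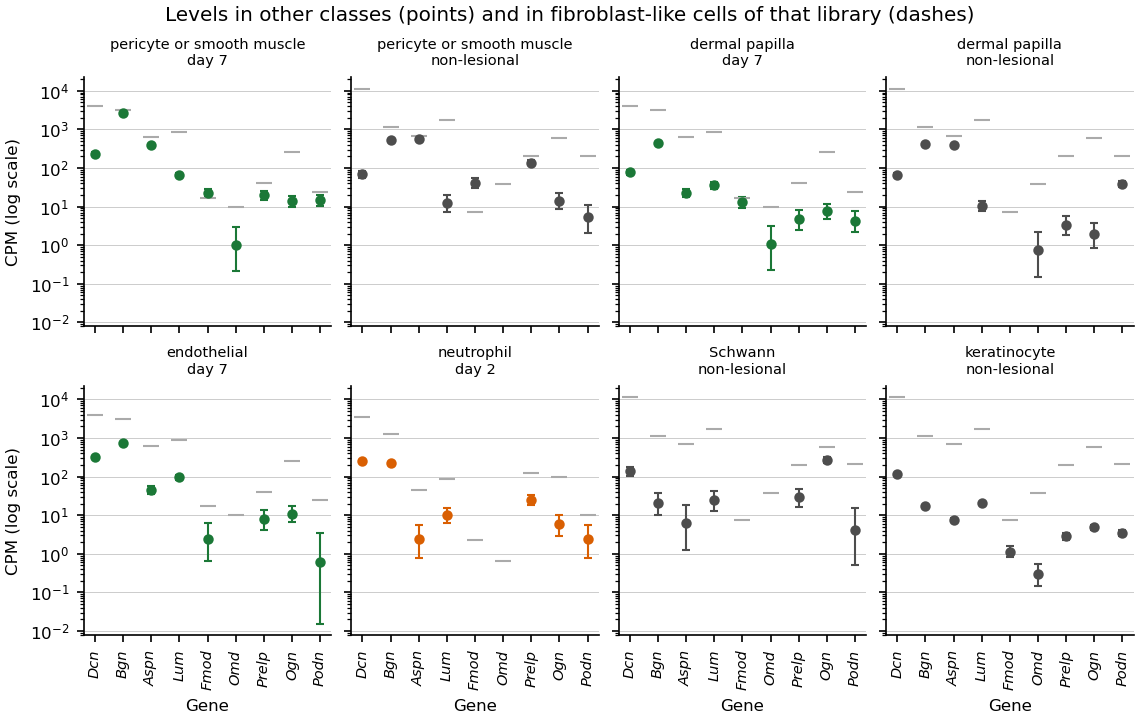
Points give the CPM of each gene (log axis) in a class and library, with bars for the 95% counting interval, and grey dashes give fibroblast-like cells of that library; genes with 0 UMIs have no point. In pericyte or smooth muscle-like cells Bgn and Aspn lie near the dashes, at 2615 and 388 CPM at day 7 and 533 and 562 CPM in non-lesional skin, while Dcn lies far below them.

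Other genes of the same matrix were followed in fibroblast-like cells as lists, chosen with earlier results of these data known. Their counts stand beside 28.5% higher and 17.3% lower of all measured genes at day 2, and 28.9% and 11.8% at day 7, and a list near these shares is no result about the list. Of the collagens that the proteoglycans bind, 3 of 12 measured genes were called higher and 6 lower at day 2 against non-lesional skin. At day 7 they were 6 higher and 2 lower of 12. Col1a2, a chain of type I collagen, was 9416 CPM at day 2 against 62476 CPM in non-lesional skin, 6.64-fold lower. It was also among the markers that named the class, as were Col1a1, Col3a1, Col5a1 and Col6a3 of this list. Fbln1, Lox and Mmp2, which are on the lists that follow, were such markers too. Col12a1, a collagen on the surface of fibrils, was 207 CPM at day 2 and 1309 CPM at day 7, against 19.9 CPM, and Col11a1, of fine fibrils, was 81.4 CPM at day 7 against 0.271 CPM. Elastic and microfibril proteins had 3 higher and 7 lower of 12 at day 2, and 2 higher and 3 lower at day 7. Eln, elastin, was 39.9 CPM at day 2 against 543 CPM, and Mfap4, a microfibril protein, 10.9 against 693 CPM. Fbn2, a fibrillin, was 195 CPM at day 7 against 13.8 CPM, and Ltbp1, which binds latent TGF-beta, 32.2 against 209 CPM.

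Of the other small leucine-rich family genes 2 of 9 measured were called higher and 6 lower at day 2, and 4 higher and 3 lower at day 7, most of them under 10 CPM. Ecm2, the neighbour of Aspn, was 4.57 CPM at day 2 and 23.1 CPM at day 7, against 167 CPM in non-lesional skin, 36.6-fold and 7.25-fold lower. Tsku (tsukushi) was 42.4 CPM at day 2 against 8.31 CPM. Podnl1, the nearest relative of Podn, was 20.1 CPM at day 7 against 0.0169 CPM, which is 1 UMI, in non-lesional skin. Of large and basement membrane proteoglycans 4 of 10 were higher and 3 lower at day 2, and 6 of 11 higher and 1 lower at day 7. Prg4 (lubricin) was 1397 CPM at day 2 and 49.3 CPM at day 7, against 7.31 CPM, Srgn (serglycin) was 64.5 CPM at day 2 against 7.28 CPM, and Spock2 (testican) was 1.21 CPM at day 7 against 22.9 CPM. Srgn is also a leukocyte gene, and its free RNA was not subtracted. Of cell surface proteoglycans 5 of 11 were higher and 3 lower on both days, with Sdc1 (syndecan) at 195 CPM at day 2 and 155 CPM at day 7, against 13.7 CPM, Cd44 at 654 CPM at day 2 against 69.5 CPM, and Gpc1 (glypican) at 119 CPM at day 7 against 4.88 CPM.

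Of the enzymes that build the sugar chains, those for chondroitin and dermatan sulfate had 4 higher and 2 lower of 18 at day 2 and 6 higher and 1 lower of 19 at day 7. Csgalnact1, which starts the chondroitin chain, was 157 CPM at day 2 and 109 CPM at day 7, against 5.20 CPM in non-lesional skin. Chst11, a chondroitin sulfotransferase, was 116 CPM at day 2 against 7.43 CPM, and Chsy1, a chain synthase, 84.9 CPM at day 7 against 12.6 CPM. Linker enzymes had 2 higher and 1 lower of 7 at day 2, and 3 higher and 0 lower at day 7. Xylt1, which adds the first xylose, was 11.0 CPM at day 2 against 28.4 CPM, called lower, and 18.0 CPM at day 7, not called, while Pxylp1, a xylose phosphatase, was 34.2 CPM at day 2 and 29.8 CPM at day 7, against 7.84 CPM. Keratan sulfate enzymes had 2 higher and 0 lower of 9 at day 2, and 3 higher and 1 lower at day 7. B4galt1 (212 against 151 CPM) and Chst1 (20.5 against 18.2 CPM) were not called at day 2, Chst2 was 22.7 CPM at day 7 against 4.05 CPM, and St3gal1 (36.9 against 62.4 CPM) was not called.

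Of the genes for collagen cross-linking and processing 8 of 15 were higher and 4 lower at day 2, and 6 higher and 3 lower at day 7. Plod2, a lysyl hydroxylase, was 354 CPM at day 2 and 117 CPM at day 7, against 7.11 CPM in non-lesional skin. Loxl3, a lysyl oxidase, was 164 CPM at day 2 against 10.3 CPM, and Pcolce2, an enhancer of procollagen cleavage, 23.3 CPM at day 7 against 546 CPM. Of proteases that cut these proteoglycans 4 of 14 were higher and 4 lower at day 2, and 6 higher and 2 lower at day 7. Ctsk (cathepsin K) was 116 CPM at day 2 against 1930 CPM and Htra1 80.2 against 447 CPM. Mmp13, a collagenase, was 82.5 CPM at day 7 against 0 UMIs in non-lesional skin, at least 1625-fold higher if 3 counts in the class are taken as the floor. Mmp9, a gelatinase on the neutrophil marker list, was 45.2 CPM against 0.118 CPM. Of receptors and partners 4 of 21 were higher and 8 lower at day 2, and 4 higher and 5 lower at day 7. Wisp1, a matricellular protein that binds decorin and biglycan, was 125 CPM at day 2 and 239 CPM at day 7, against 23.8 CPM, and Bmp4 was 2.72 and 2.22 CPM against 40.5 CPM.

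The genes most like each member were sought over 24 combinations of class and library with at least 50 cells, among 7443 genes, by Pearson correlation of log2 levels. The combinations share libraries, depth and free RNA, so the values are a description. Dcn was most like Sfrp4 (0.94), Creb3l3 (0.94) and Col1a2 (0.93), and Lum like Clec3b (0.93), Fndc1 (0.93) and Col1a2 (0.92). Bgn was most like Fstl1 (0.94), Pcolce (0.93) and P3h3 (0.92), and Aspn like Cygb, Nbl1 and Gpc6 (0.89 each). Prelp was most like Adamtsl1 (0.94), Adamts5 (0.94) and Prkg2 (0.91), Ogn like C4b (0.92), Spon2 (0.91) and Sparc (0.89), and Fmod like Mamdc2 (0.93), Mark1 (0.87) and Ednra (0.87). Omd was most like Serpina3c (0.91), Mmp27 (0.90) and Pamr1 (0.89), and Podn like Scara5 (0.88), Cldn10 (0.87) and Serpina3c (0.87). Among the members Omd and Podn (0.83), Dcn and Ogn (0.82) and Dcn and Lum (0.81) had the highest values, and Dcn and Fmod the lowest (0.16).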

How the data were processed

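Single-cell RNA was measured with the 10x 3′ v2 kit in 3 libraries, 1 per group. The deposited matrices give, for each barcode, the UMI count of every gene. Their headers name Cell Ranger 5.0.0, while the submitters' processing notes list Cell Ranger 3.0.2, Seurat 3.0 and mm10. Kept cells had at least 200 genes and at most 10% mitochondrial UMIs. Barcodes over that mitochondrial limit were 397 of 10857 in non-lesional skin, 387 of 8707 at day 2 and 1841 of 7317 at day 7. The shares of barcodes kept were 86.5%, 84.6% and 65.2%, so the filters took most from day 7. Scrublet (in scanpy 1.11.5) scored doublets, and the highest-scoring share of barcodes, 0.8% per 1000 barcodes, was removed (943, 606 and 428 cells). Cells of the 3 libraries were clustered together (30 principal components, 20 neighbours, Leiden resolution 1) without the 9 genes, and clusters were named from 17 marker lists. Counts were summed per class and library and divided by the class total (CPM). Levels have exact Poisson intervals, ratios exact conditional binomial intervals and shares Clopper-Pearson intervals. Log2 folds add 5 CPM. TMM factors came from edgeR 4.0.16, used for scaling only. The fold calls were tested on simulated counts that held counting error only.

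All 9 genes were named, as were the 2 genes of each of 11 lists with the largest absolute log2 fold at day 2 and at day 7 against non-lesional skin (at least 20 CPM in the higher library), and the 3 genes most like each member. The members and lists were chosen with earlier results of these data known. Alternatives in scaling, threshold, cell filters, doublets, depth and classes were tried. Gene positions come from the GENCODE annotation of GRCm38, which held 27645 of the 27998 gene identifiers. UMI counting does not resolve reads shared by overlapping genes.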

Additional observations from a re-analysis of the deposited data

Results flagged for a closer look

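Of the 9 genes, Fmod moved in opposite directions on the 2 days in fibroblast-like cells. It stood at 0.310 times the non-lesional level at day 2 and at 2.34 times it at day 7. Both ratios share the non-lesional library and the difference was not tested. The opposite direction depends on how cells were classed, since day 7 over non-lesional skin was 0.879 with the Coch-led cluster counted as fibroblast-like and 0.695 with each library clustered alone. The day 2 ratio was 0.695 without dividing cells and was then not called.

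The other results concern genes whose day 7 level over non-lesional skin lay above 1 in another class and below 1 in fibroblast-like cells. In pericyte or smooth muscle-like cells Dcn was 236 CPM at day 7 against 68.8 CPM, a ratio of 3.43, beside 0.352 in fibroblast-like cells. Lum was 65.8 against 12.7 CPM in these cells, a ratio of 5.17, beside 0.495. Podn was 14.5 against 5.24 CPM, a ratio of 2.77 that rests on 7 UMIs in non-lesional skin, beside 0.117. Relative to Dcn, Lum in these cells was 1.27 times the fibroblast ratio at day 7 and 1.19 times in non-lesional skin.

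In dermal papilla-like cells Lum was 35.6 CPM at day 7 against 10.5 CPM, a ratio of 3.38, beside 0.495 in fibroblast-like cells. Ogn was 7.54 against 1.96 CPM, a ratio of 3.86, beside 0.434. In T, NK or innate lymphoid-like cells, which should lack these transcripts, Dcn was 348 CPM at day 7 against 105 CPM and Lum 120 against 17.0 CPM. None of these differences between classes was tested, with 1 library per group, and the part of free RNA in them was not tested.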

How the results depend on the processing

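No paired analysis was possible because each group has 1 library, and no library could be left out. Of the counts of called genes under alternatives, 142 stayed within 1.5 times and 15 did not. Of the log2 folds of single members, 252 moved, 5 reversed and 202 did neither. In fibroblast-like cells at day 7 against non-lesional skin the count of members called higher was 1, not 2, under median-of-ratios scaling, TMM scaling, at most 5% mitochondrial UMIs, doublets kept, a class given to each cell, each library clustered alone, and the Coch-led cluster counted as fibroblast-like. In each of these Fmod lost its call, and its log2 fold was -0.42 with each library alone and -0.15 with the Coch-led cluster. With UMIs per cell, 1 member was called higher at day 2 (0 by CPM) and 1 lower at day 7 (6 by CPM), and the day 7 log2 fold was 0.064 for Dcn, 0.56 for Lum and 0.37 for Ogn. Over whole libraries 1 member was called higher at day 2 with a 1.5-fold threshold, and 4, not 7, at day 7 against day 2 under median-of-ratios and TMM scaling. Of the listed genes 24 were lower at day 7 against non-lesional skin, and 37 under TMM and 38 under median-of-ratios scaling. Spearman correlation shared 9 of the 27 like genes. UMIs per cell, the Coch-led cluster and subtraction of free RNA were chosen after seeing the data. The cause of these changes was not tested. Among members summed over fibroblast-like cells, Omd at day 2 rested on the fewest UMIs (72).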
